A study of Homo sapiens with 21 samples.

Results

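The snoRNA host long noncoding genes are transcribed like other genes and spliced, and the small nucleolar RNAs (snoRNAs) are cut from their introns while the joined exons leave as a noncoding RNA. The snoRNAs of box C/D guide ribose methylation and those of box H/ACA guide pseudouridylation of ribosomal RNA, while scaRNAs do the same for spliceosomal RNA in Cajal bodies. The spliced host RNAs often hold short reading frames and are known to be degraded by nonsense-mediated decay (NMD), so that blocked translation raises them, and GAS5, the growth arrest-specific transcript, was named for its accumulation in cells that stop growing. The members were taken by name, as every row of the deposited table called SNHG followed by a number, plus GAS5, ZFAS1 and EPB41L4A-AS1. This gave 28 rows of 58735, under 27 names, because SNHG28 stands on 2 rows. Of these, 22 had a mean of at least 0.5 FPKM (the number of fragments on a gene, corrected for its length and for the library size) over the 21 libraries and were tested, and 6 were low.

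The libraries were poly(A)-selected RNA from MDA-MB-453 cells, a breast cancer cell line with a WT genotype in all groups. There were 3 libraries for each of 7 groups: an untreated control, calcium (10 mM, here Ca), cadmium (10 μM, Cd), GSK4716 (5 μM), which the study used as an agonist of the orphan nuclear receptor ESRRB, DES (diethylstilbestrol, 10 μM), which it used as the antagonist, DES with calcium and DES with cadmium. Treatment lasted 24 h, and in the combined groups DES was added 3 h before the metal. Calcium and GSK4716 were given in medium without serum and cadmium in medium with 1% charcoal-stripped serum, DES and GSK4716 were dissolved in ethanol, and there was 1 control group. The medium of the control and of DES alone, and any vehicle in the control, are not given in the sources used here, so serum and ethanol cannot be told apart from the treatments. Nothing says that the 3 libraries of a group came from separate cultures, so p-values measure only the spread between these libraries, which may be technical. The libraries held 14435925 to 28424805 fragments on genes. Of the markers chosen for the line, KRT8, KRT18, GATA3, FOXA1, ERBB2, SPDEF and EPCAM were present in every library, from 50.9 FPKM for EPCAM upward, while PECAM1, ESR1 and PTPRC stayed at or under 0.218 FPKM and COL1A1, listed as low or absent, lay between 9.34 and 32.7 FPKM. The mitochondrial genome took 4.88% to 9.75% of fragments in the libraries without DES and 1.97% to 5.31% in those with DES, and the part of this difference in the results was not tested. The library size behind the FPKM values was 0.693 times the fragments on genes in DES with cadmium replicate 1 and 0.862 to 1.15 times in the other libraries.

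The first bases of the transcripts are shown because several host RNAs are known to begin, like the mRNAs of ribosomal proteins, with a terminal oligopyrimidine (TOP) tract, which ties translation to growth signals. The start used was the one that the largest number of transcripts of the gene share in GENCODE release 44 (GRCh38), and 60 bases are printed, 35 before the start and 25 from it. Capitals mark the unbroken run of C and T that begins at a start base of C. A start was called TOP-like, by a rule chosen after values were seen, where C was followed by at least 4 pyrimidines.
GAS5: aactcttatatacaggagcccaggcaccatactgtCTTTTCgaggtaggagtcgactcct
SNHG8: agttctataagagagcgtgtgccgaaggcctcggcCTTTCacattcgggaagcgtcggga
ZFAS1: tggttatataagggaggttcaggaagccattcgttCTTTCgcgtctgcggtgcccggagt
EPB41L4A-AS1: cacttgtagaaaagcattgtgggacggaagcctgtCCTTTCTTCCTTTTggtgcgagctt
SNHG12: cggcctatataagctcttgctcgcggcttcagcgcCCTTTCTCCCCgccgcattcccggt
SNHG1: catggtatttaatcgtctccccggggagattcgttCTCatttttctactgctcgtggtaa
SNHG5: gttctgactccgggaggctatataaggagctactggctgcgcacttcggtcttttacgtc

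These windows lie at chr1:173867965-173868024 on the minus strand (GAS5), chr4:118278723-118278782 on the plus strand (SNHG8), chr20:49278607-49278666 on the plus strand (ZFAS1), chr5:112160829-112160888 on the plus strand (EPB41L4A-AS1), chr1:28581849-28581908 on the minus strand (SNHG12), chr11:62855861-62855920 on the minus strand (SNHG1) and chr6:85678724-85678783 on the minus strand (SNHG5). EPB41L4A-AS1 had 2 starts with equal support, of which the more upstream is shown. With SNHG6, the first 5 of these were the TOP-like members, which made 6 of 22 (27.3%), against 487 of the 14593 tested genes found in GENCODE (3.34%) and 53 of 80 cytosolic ribosomal protein genes (66.3%). At these annotated starts SNHG1 had a run of 3 pyrimidines and SNHG7 a run of 4, and SNHG5 did not begin with C. The printed SNHG5 bases hold a C followed by 4 T further downstream. Transcript starts were not measured here, and another start could change which members are TOP-like. SNHG3, SNHG9, SNHG19, SNHG22 and SNHG25 also had tied starts, of which the most upstream was used. In the 300 bases from 250 before to 50 after the start, on either strand, the E-box CACGTG, a site of MYC and of TFE-type factors, was found in 6 of 22 members and in 8.94% of all genes. The CRE TGACGTCA, read by the CREB and ATF families, was found in 2 members (GAS5 and SNHG15) and in 2.67% of all genes, and the estrogen-related receptor element TNAAGGTCA in 0 members and in 0.795% of all genes. A match of letters is a description and not a site of binding.

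The members spanned a wide range of levels. GAS5 had the highest mean over all libraries, at 83.5 FPKM, followed by SNHG8 at 67.3, SNHG1 at 60.0, SNHG6 at 52.5, SNHG19 at 46.1 and SNHG7 at 39.8 FPKM. ZFAS1, SNHG16, SNHG5, SNHG15, SNHG3, SNHG17, EPB41L4A-AS1, SNHG11, SNHG25 and SNHG12 had means between 23.6 and 5.29 FPKM, SNHG10 and SNHG9 means of 4.48 and 2.40 FPKM, and SNHG20, SNHG14, SNHG22 and SNHG4 means from 0.685 down to 0.521 FPKM. These are means over unlike groups and were not tested against each other. Among the low rows, SNHG21 held 0 to 35 fragments per library and was at 0 in 3 libraries, the SNHG28 row annotated as protein-coding held 86 fragments in all libraries, SNHG26 held 11 and SNHG18 held 1, while the other SNHG28 row and SNHG27 were listed at 0. Of the 22 tested members, 13 overlap another gene row, on the same strand for SNHG3 with RCC1, SNHG20 with SEC14L1, SNHG4 with MATR3 and SNHG14 with SNRPN, and on the opposite strand for GAS5 with ZBTB37, ZFAS1 with ZNFX1 and EPB41L4A-AS1 with EPB41L4A. The protocol names both directional and non-directional libraries, so reads in these overlaps cannot be assigned with certainty.

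**Figure D1:**
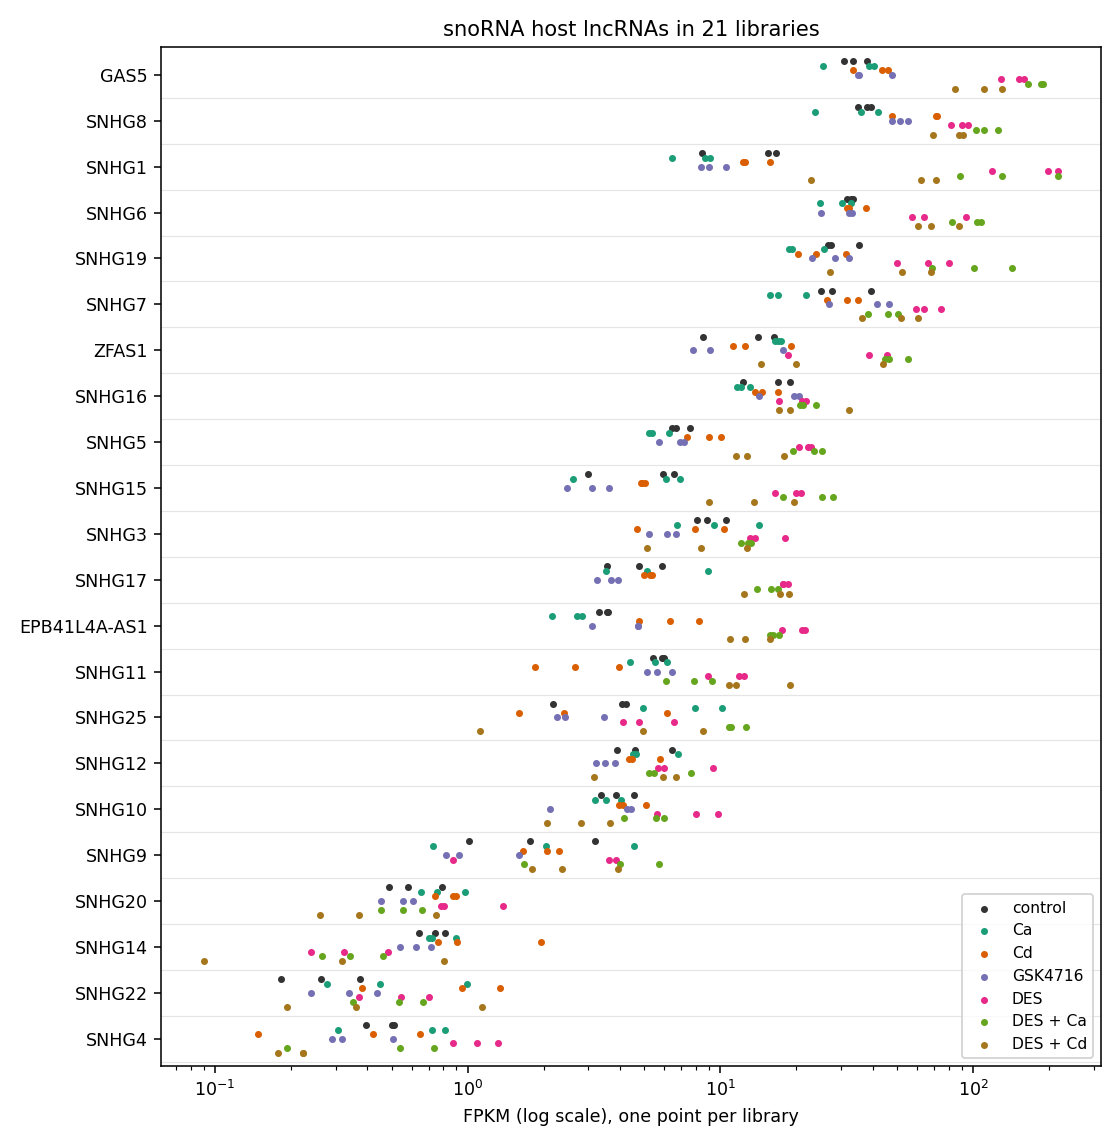
FPKM of the 22 tested members (log axis) in the 21 libraries, one point per library, coloured by the 7 groups and ordered by mean level. GAS5 lies at 25.4 to 47.7 FPKM in the 12 libraries without DES and at 84.8 FPKM or above in the 9 with DES, while the points of SNHG16, SNHG12 and SNHG9 intermingle.

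Most of the host RNAs were higher with DES. Against control, 15 of the 22 tested members were called higher and 0 lower at an adjusted p of 0.05 (limma), where 16.7% of all tested genes were called higher and 29.6% in either direction. The median log2 fold change of the members was 1.08, against 0.05 over all tested genes, and 21 of 22 were above 0, against 52.0% of all genes. In 15 members every DES library lay above every control library, where 25.9% of all genes did so, and in 1 member, SNHG14, every DES library lay below, where 22.9% did so. In bulk RNA, fewer cells of a type and less RNA per cell cannot be told apart. The log2 fold changes below are on the log2(FPKM + 0.1) scale with the standard error of the fit, which understates the change of low genes. SNHG4, one of the 15, reached the mean of 0.5 FPKM only through the DES libraries (0.426 FPKM over the other 6 groups), so its call is no support, and without it 14 of 21 members were called.

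SNHG1, the host of the box C/D snoRNAs SNORD22, SNORD30 and SNORD25 to SNORD28, had the largest change. It was measured at 15.4, 16.6 and 8.46 FPKM in the control libraries and at 119, 198 and 218 FPKM in the DES libraries. The lowest DES library thus lay above the highest control library, and the log2 fold change was 3.73 ± 0.33 (adjusted p = 0.000888). EPB41L4A-AS1, which hosts the box H/ACA snoRNA SNORA13, went from 3.32, 3.57 and 3.58 FPKM to 17.5, 21.7 and 20.9 FPKM, a log2 fold change of 2.48 ± 0.15 (adjusted p = 0.000277). Its control libraries were close to each other, and none came near the DES libraries. GAS5, known as the host of a series of box C/D snoRNAs, had 38.1, 30.7 and 33.4 FPKM in control and 129, 152 and 159.6 FPKM with DES, a log2 fold change of 2.10 ± 0.16 (adjusted p = 0.000516). The snoRNAs of GAS5 were not analysed here. Its DES libraries were all above its control libraries.

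Among the H/ACA hosts, SNHG15 (SNORA9) had 5.92, 6.54 and 2.99 FPKM in control and 20.9, 19.9 and 16.4 FPKM with DES, a log2 fold change of 1.94 ± 0.30 (adjusted p = 0.00538). SNHG17, which holds SNORA71A to SNORA71D, had 4.76, 5.85 and 3.54 FPKM and then 17.7, 18.5 and 17.7 FPKM, a log2 fold change of 1.94 ± 0.20 (adjusted p = 0.00149). Both had their 3 DES libraries above all 3 control libraries, and the DES libraries of SNHG17 were nearly level. SNHG8 (SNORA24) had 38.2, 35.1 and 39.6 FPKM in control and 90.0, 95.4 and 81.7 FPKM with DES, a log2 fold change of 1.24 ± 0.14 (adjusted p = 0.00199). SNHG7 (SNORA17) had 27.6, 24.9 and 39.6 FPKM and 59.3, 64.0 and 74.3 FPKM, a log2 fold change of 1.12 ± 0.21 (adjusted p = 0.00921). The groups did not overlap in either, although replicate 3 of control stood above the others for SNHG7. SNHG11 (SNORA60) had 5.86, 5.42 and 6.0 FPKM and 11.9, 8.94 and 12.4 FPKM, a log2 fold change of 0.92 ± 0.18 (adjusted p = 0.0104). SNHG4 (SNORA74), a low gene, had 0.395, 0.508 and 0.501 FPKM and 1.09, 1.31 and 0.878 FPKM, a log2 fold change of 1.06 ± 0.31 (adjusted p = 0.0419). SNHG4 lies on the same strand as MATR3, and its groups were apart here. SNHG3, the host of the U17 snoRNAs SNORA73A and SNORA73B, had a log2 fold change of 0.69 ± 0.19 (adjusted p = 0.0315).

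Among the C/D hosts, SNHG5 (SNORD50) had 6.66, 6.44 and 7.55 FPKM in control and 22.7, 20.4 and 22.1 FPKM with DES, a log2 fold change of 1.65 ± 0.14 (adjusted p = 0.000785). SNHG6 (SNORD87) had 33.4, 31.7 and 32.8 FPKM and 93.8, 64.1 and 57.3 FPKM, a log2 fold change of 1.10 ± 0.20 (adjusted p = 0.00923). SNHG5 and SNHG6 were both tight in control, and DES replicate 1 was the highest for SNHG6. SNHG19 (SNORD60) had 27.5, 26.7 and 35.2 FPKM and 80.0, 66.5 and 49.9 FPKM, a log2 fold change of 1.12 ± 0.22 (adjusted p = 0.0105). ZFAS1, which holds the SNORD12 family and runs antisense to ZNFX1, had 16.2, 14.1 and 8.50 FPKM and 45.5, 38.7 and 18.6 FPKM, a log2 fold change of 1.35 ± 0.38 (adjusted p = 0.0375). DES replicate 3 of ZFAS1 stood close to the highest control library. SNHG10, whose intron holds SCARNA13, had 4.55, 3.38 and 3.86 FPKM and 5.61, 8.02 and 9.78 FPKM, a log2 fold change of 0.95 ± 0.24 (adjusted p = 0.0271).

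The other 7 tested members were not called in this fit. The log2 fold change was 0.33 for SNHG16 (95% confidence interval −0.15 to 0.81), 0.48 for SNHG12 (−0.16 to 1.12), 0.58 for SNHG25 (−0.15 to 1.30), 0.58 for SNHG20 (−0.26 to 1.41), 0.78 for SNHG22 (−0.24 to 1.79) and 0.36 for SNHG9 (−1.12 to 1.85). These intervals are wide for the low genes SNHG9, SNHG20 and SNHG22 and do not show that the genes stayed level. SNHG14, the long imprinted host of the SNORD115 and SNORD116 clusters whose transcript runs antisense to UBE3A, was the member with a negative value, at −0.92 (−1.80 to −0.05, adjusted p = 0.101). It was called lower by limma-voom on the recovered fragments (−1.18, adjusted p = 0.00891) and by limma without DES replicate 3 (−1.13, adjusted p = 0.0478). Its libraries had 0.812, 0.745 and 0.644 FPKM in control and 0.240, 0.323 and 0.483 FPKM with DES.

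**Figure D2:**
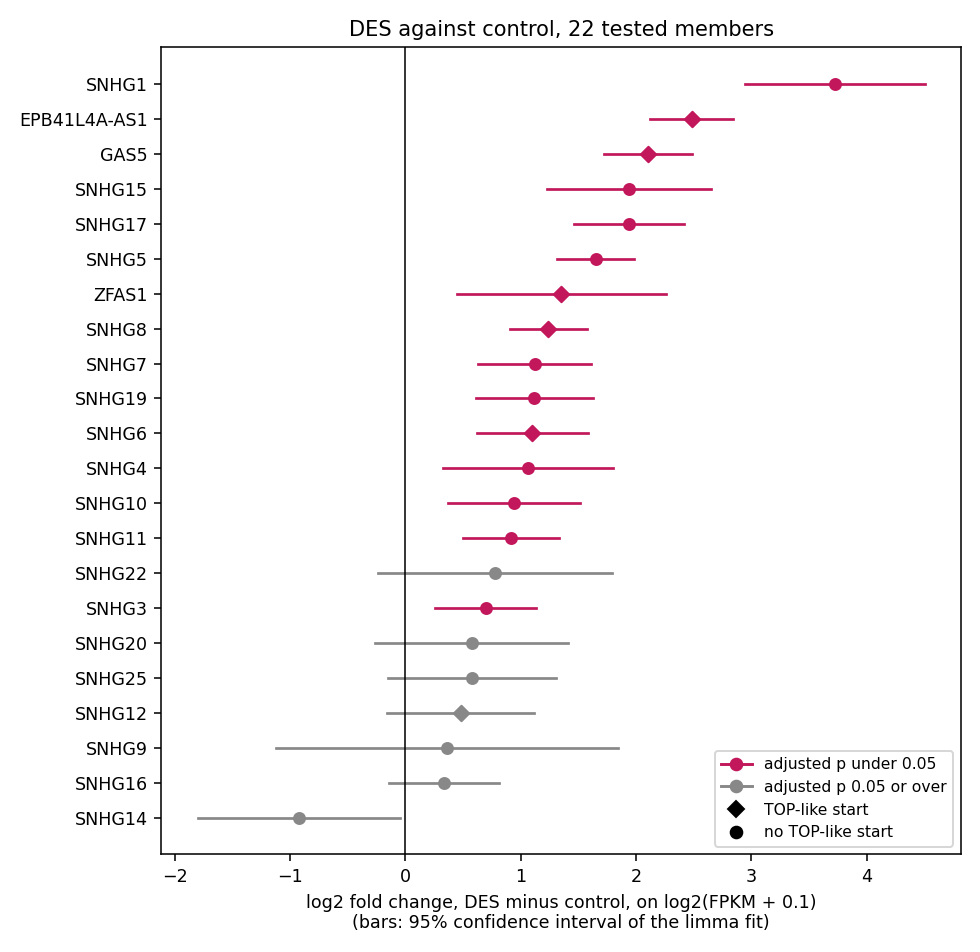
Log2 fold change of DES against control for the 22 tested members, on log2(FPKM + 0.1), with the 95% confidence interval of the limma fit (bars), red for an adjusted p under 0.05 and diamonds for TOP-like starts. The values run from −0.92 for SNHG14 to 3.73 for SNHG1, and 15 are red.

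The calls stood across kinds of host. They included 5 of 7 members with C/D rows and no other, 8 of 9 with H/ACA rows and no other, 1 of 3 with a scaRNA row, 0 of 2 with both C/D and H/ACA rows (SNHG12 and SNHG25) and GAS5. Of the members with a TOP-like start 5 of 6 were called, and 10 of the 16 without. Of the members that overlap no other gene row 7 of 9 were called, and 8 of 13 of those that do. Of the members with a mean of at least 5 FPKM 13 of 16 were called, and 2 of 6 of those below. These shares count the call of SNHG4, which is no support. It stands among the H/ACA hosts, the members without a TOP-like start, those that overlap another row and those below 5 FPKM. The differences between these shares were not tested. Of the 15 calls, 7 (EPB41L4A-AS1, GAS5, SNHG1, SNHG5, SNHG8, SNHG11 and SNHG17) were made under every alternative run, while those of SNHG3, SNHG4, SNHG10 and ZFAS1 were lost in 7 to 9 of them. Leaving out each library in turn gave 10 to 13 members called higher, with 10 in the fit without control replicate 1, where 8.65% of all genes were called higher, and without DES replicate 3 SNHG14 was called lower.

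As a sum, the 22 tested members came to 249.8 to 265 FPKM in the control libraries and to 765 to 830.1 FPKM with DES. SNHG1 made up 3.03% to 6.63% of this sum in the libraries without DES and 15.5% to 26.8% in the DES libraries. Without GAS5 and SNHG1 the sum was 203 to 220.0 FPKM in control and 434 to 516 FPKM with DES. The rise of the sum was thus also seen in the remaining members.

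Calcium, cadmium and GSK4716 alone gave no called member. Against control, limma called 0 of 22 members with calcium (7.12% of all genes called), 0 with cadmium (0.15%) and 0 with GSK4716 (0.0%). On the recovered fragments limma-voom also called 0 members in each, where it called 10.6%, 3.15% and 0.586% of all genes. At an unadjusted p under 0.05 there were 4, 4 and 2 members, where 23.5%, 25.9% and 16.4% of all genes passed that limit. These comparisons share the control libraries with each other and with DES. SNHG8 had 71.9, 47.6 and 71.0 FPKM with cadmium, a log2 fold change of 0.73 ± 0.19 (adjusted p = 0.0983). EPB41L4A-AS1 had 8.25, 6.32 and 4.77 FPKM with cadmium, a log2 fold change of 0.83 ± 0.22 (adjusted p = 0.104). All cadmium libraries of both lay above their control libraries, which held for 3 of 22 members and 17.7% of all genes, and neither passed the adjusted threshold. SNHG11 had 3.97, 2.66 and 1.84 FPKM with cadmium, a log2 fold change of −1.07 ± 0.29 (adjusted p = 0.103), with all cadmium libraries below control, which held for 1 of 22 members and 16.7% of all genes. Without cadmium replicate 1, SNHG11 (adjusted p = 0.0334) and SNHG22 (adjusted p = 0.0457) were called, 2 of 22 members where 10.9% of all genes were called. SNHG22 reached the mean of 0.5 FPKM only through the cadmium libraries (0.467 FPKM over the other 6 groups), so its call is no support. The same holds for its place among the 4 members under the unadjusted limit with cadmium. It also holds for its place among the 3 with all cadmium libraries above control. With all 7 groups in one fit SNHG8, EPB41L4A-AS1 and SNHG11 were called, 3 of 22 where 6.99% of all genes were. With calcium, SNHG7 had 21.7, 16.9 and 15.7 FPKM, a log2 fold change of −0.74 ± 0.22 (adjusted p = 0.101). For GAS5 the log2 fold change was 0.01 (95% confidence interval −0.49 to 0.52) with calcium, 0.26 (−0.14 to 0.66) with cadmium and 0.20 (−0.18 to 0.57) with GSK4716. For SNHG1 it was −0.69 (−1.40 to 0.02), 0.05 (−0.63 to 0.73) and −0.48 (−1.14 to 0.19). The upper ends of all these intervals lie below the interval of DES for both genes.

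**Figure D3:**
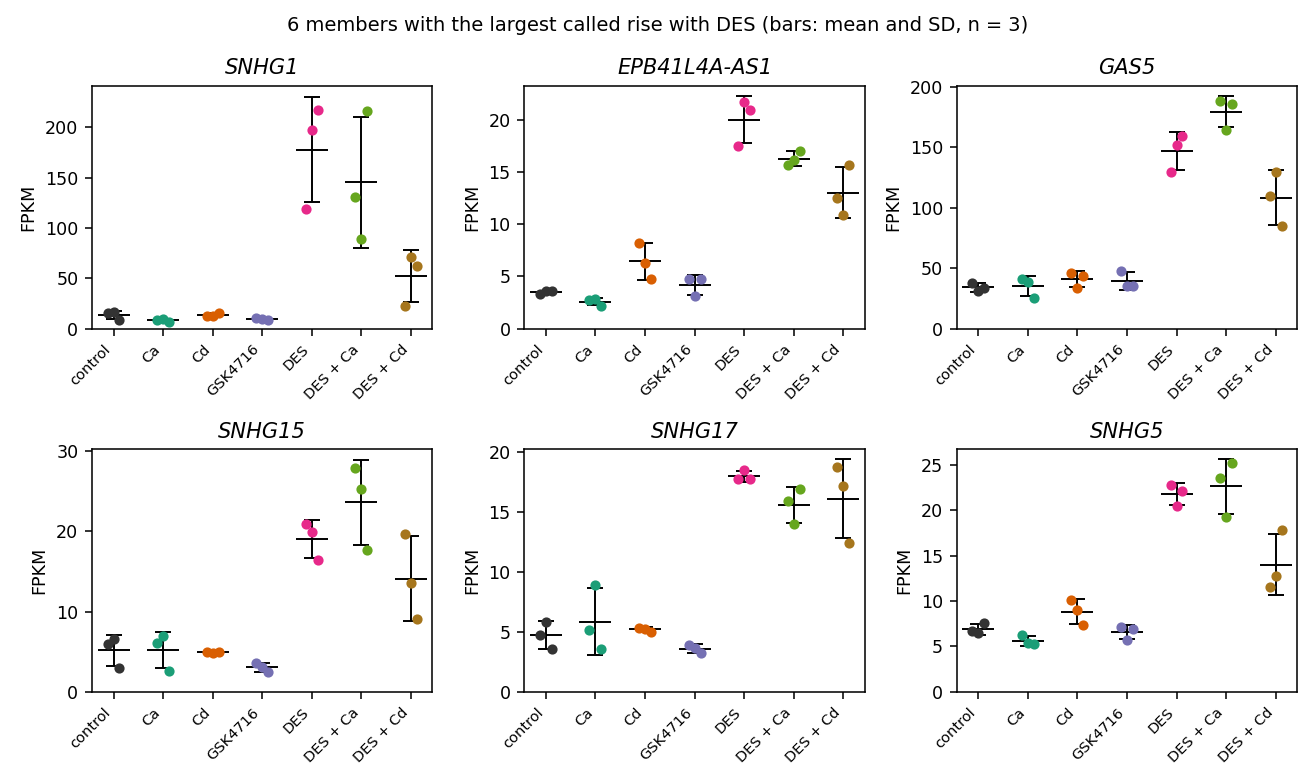
FPKM of the 6 members with the largest called rise with DES in each library (points), with mean and SD (n = 3) for the 7 groups, on linear axes from 0. In each panel the 9 libraries with DES lie above the 12 without. For SNHG1, EPB41L4A-AS1 and SNHG5 the libraries of DES with cadmium are the lowest of the 9.

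The rise with DES was also seen in cells given a metal. These 2 comparisons were added after the data were seen. DES with calcium against calcium alone, which shares no library with DES against control, called 12 members higher and 0 lower (18.5% of all genes called higher). Of the 15 members called with DES alone 11 (73.3%) were called here, and of these 12 calls 11 (91.7%) were made with DES alone, the other being SNHG16, which had 13.1, 11.7 and 12 FPKM with calcium and 21.2, 23.9 and 20.6 FPKM with both. SNHG1 had 8.67, 9.12 and 6.44 FPKM with calcium and 131, 89.1 and 216 FPKM with both, a log2 fold change of 4.07 ± 0.33 (adjusted p = 0.00169). EPB41L4A-AS1 had 2.71, 2.82 and 2.16 FPKM and 15.7, 16.2 and 17.1 FPKM, a log2 fold change of 2.63 ± 0.17 (adjusted p = 0.00167). GAS5 had 40.7, 38.9 and 25.4 FPKM and 188, 165 and 186 FPKM, a log2 fold change of 2.38 ± 0.21 (adjusted p = 0.00175). In each of these genes every library with both agents lay above every calcium library, which held for 14 of 22 members and 25.7% of all genes. ZFAS1 went from 17.3, 16.8 and 16.5 FPKM to 46.6, 55.2 and 44.9 FPKM, a log2 fold change of 1.52 ± 0.13 (adjusted p = 0.00173), and SNHG19 from 18.7, 25.8 and 19.2 FPKM to 100.5, 142 and 68.9 FPKM, 2.24 ± 0.28 (adjusted p = 0.00316).

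DES with cadmium against cadmium alone called 5 members higher and 0 lower (4.76% of all genes called higher). These were SNHG11, SNHG17, SNHG15, GAS5 and SNHG6, and all 5 were also called with DES alone. SNHG11 had 18.8, 11.5 and 10.8 FPKM with both agents, a log2 fold change of 2.26 ± 0.37 (adjusted p = 0.0308) against cadmium. SNHG17 had 5.36, 5.25 and 5.00 FPKM with cadmium and 18.7, 17.2 and 12.4 FPKM with both, a log2 fold change of 1.59 ± 0.23 (adjusted p = 0.0298). GAS5 had 46.0, 33.6 and 43.6 FPKM and 110.2, 130.0 and 84.8 FPKM, a log2 fold change of 1.39 ± 0.25 (adjusted p = 0.0340). All 5 calls had an adjusted p of at least 0.0298. Without cadmium replicate 1, 2 or 3, or without replicate 3 of DES with cadmium, limma called 0 of all 14686 genes, so that 0 member calls there says nothing particular to the members, and their median log2 fold change was 0.71, 0.51, 0.53 and 0.60, against 0.60 with all libraries. Without replicate 2 of DES with cadmium 2 members were called higher, where 1.44% of all genes were. SNHG1 had 12.5, 12.3 and 15.6 FPKM with cadmium and 22.8, 71.6 and 62.3 FPKM with both, a log2 fold change of 1.80 ± 0.45 (adjusted p = 0.0521). The lowest of these libraries was replicate 1, the one with a library size of 0.693 times its fragments, and without it the log2 fold change was 2.31 (adjusted p = 0.0360).

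Over all groups, 7 members (GAS5, SNHG1, SNHG6, SNHG5, SNHG15, SNHG17 and EPB41L4A-AS1) had every one of the 9 libraries with DES above every one of the 12 libraries without, where 608 genes (4.14%) did so. The gap was between 47.7 and 84.8 FPKM for GAS5 and between 37.7 and 57.3 FPKM for SNHG6. It was narrower for SNHG5, between 10.1 and 11.5 FPKM.

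A metal on top of DES gave no called member. By limma, DES with calcium against DES called 0 of 22 (0.136% of all genes called) and DES with cadmium against DES called 0 of 22 (0.266%). In both, limma-voom called 0 of all 14686 genes, so its 0 member calls say nothing particular to the members. At an unadjusted p under 0.05 there were 3 and 5 members, where 13.2% and 10.4% of all genes passed that limit. These comparisons share the DES libraries. With calcium the median log2 fold change of the members was −0.01, and 11 of 22 were above 0. With cadmium the median was −0.45, and 4 of 22 were above 0, against −0.04 and 47.2% over all genes. In 7 members every library of DES with cadmium lay below every DES library (10.9% of all genes) and in 0 above (5.38%). SNHG1 had 22.8, 71.6 and 62.3 FPKM with both, a log2 fold change against DES of −1.88 ± 0.49 (adjusted p = 0.256), or −1.37 without replicate 1 of DES with cadmium (adjusted p = 0.224). SNHG4 had 0.223, 0.178 and 0.222 FPKM with both, a log2 fold change of −1.94 ± 0.38 (adjusted p = 0.139). SNHG10 had 3.64, 2.82 and 2.07 FPKM with both, a log2 fold change of −1.42 ± 0.33 (adjusted p = 0.199). The 3 genes had no overlap between the groups but missed the adjusted threshold. With all 7 groups in one fit 4 members (SNHG1, SNHG5, SNHG10 and SNHG4) were called lower, where 3.51% of all genes were. SNHG4 was tested only through its DES libraries, so its values here are no support either. The summed FPKM was 855 to 902 with DES and calcium and 555 to 564 with DES and cadmium, against 765 to 830 with DES. As a share of all fragments on genes, the members took 0.175% to 0.241% with DES and calcium and 0.102% to 0.156% with DES and cadmium, against 0.185% to 0.262% with DES, so that the calcium libraries were above DES in summed FPKM and overlapped it in this share.

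The interaction asked whether the effect of a metal with DES differed from its effect without. For calcium limma called 0 of 22 members (3.63% of all genes called), with 2 at an unadjusted p under 0.05 (19.9%) and 0 called by limma-voom (4.32%). For cadmium limma also called 0 (1.18%), with 9 at an unadjusted p under 0.05 (18.5%) and 0 called by limma-voom (0.783%). SNHG4, among these 9 with −1.64 ± 0.65, was tested only through its DES libraries. SNHG22, at −1.48, was tested only through its cadmium libraries. Both count below among the members that were not above 0 and are no support. The cadmium interaction was above 0 in 2 of 22 members, with a median of −0.57 on the log2 scale, against 45.6% and −0.09 over all genes. EPB41L4A-AS1 came closest to the threshold, with an interaction of −1.46 ± 0.32 (adjusted p = 0.0544). SNHG10 had −1.58 ± 0.38 (adjusted p = 0.0674) and SNHG1 had −1.93 ± 0.60 (adjusted p = 0.121). SNHG11 was on the other side, with 1.35 ± 0.41 (adjusted p = 0.121). With all 7 groups in one fit 5 members were called in this interaction (EPB41L4A-AS1, SNHG10, SNHG5, SNHG1 and SNHG11), where 5.46% of all genes were, and 1, SNHG10, was called without DES replicate 1 (1.58% of all genes called) or without replicate 1 of DES with cadmium (1.19%).

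**Figure D4:**
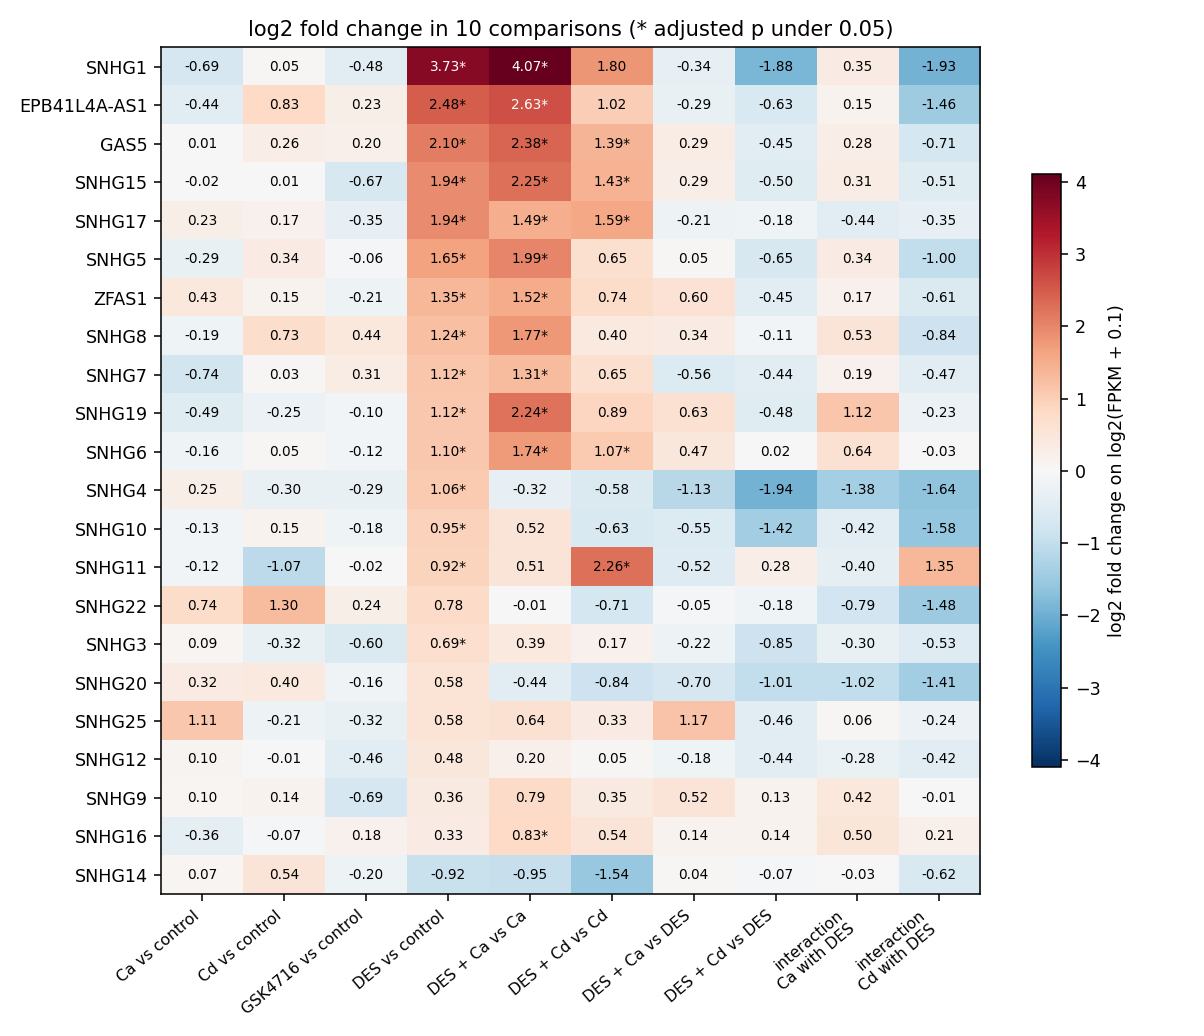
Log2 fold change on log2(FPKM + 0.1) of the 22 tested members (rows, ordered by the DES value) in 10 comparisons (columns), printed in each cell, with a star for an adjusted p under 0.05. Stars stand only in the 3 columns that compare DES with its absence, 15, 12 and 5 of them.

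Some members start within 1000 bases of a coding gene on the other strand. SLC3A2, the heavy chain of amino acid transporters, starts 188 bases upstream of SNHG1 in the deposited annotation. It had 54.7 ± 21.9 FPKM (SD, n = 3) in control and 384 ± 53.7 FPKM with DES, a log2 fold change of 2.87 ± 0.29 (adjusted p = 0.00137). In the cadmium libraries SLC3A2 had 154 ± 108 FPKM, while SNHG1 had 12.5, 12.3 and 15.6 FPKM. ZBTB37, a zinc finger gene whose start lies 800 bases from that of GAS5, had 1.55 ± 0.125 FPKM in control and 0.780 ± 0.251 FPKM with DES, a log2 fold change of −0.95 ± 0.30 (adjusted p = 0.0533). ZNFX1, 248 bases from the start of ZFAS1, had a log2 fold change of −0.63 ± 0.20 (adjusted p = 0.0535). TRAF7, 340 bases from SNHG19, had 0.14 ± 0.15 (adjusted p = 0.509), and the ribosomal protein gene RPS2, 99 bases from SNHG9, had 0.71 ± 0.29 (adjusted p = 0.109). Of these 5 tested coding neighbours, SLC3A2 was the one called.

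The snoRNAs themselves were barely covered. Rows of 128 snoRNAs or scaRNAs lie inside 24 members, 83 of them inside SNHG14, and 37 held at least 1 fragment, with 4398 fragments in all 21 libraries. Poly(A) selection takes up few such RNAs, and a fragment in such a row cannot be told apart from host RNA that kept its intron. The host row of SNHG1 counts 3756 bases between positions 62851988 and 62855914, which is most of its span. Its FPKM can therefore include intron bases. All 6 rows inside SNHG1 held 0 fragments in every library. Whether reads falling on both a host row and a snoRNA row were left out of the counts was not tested. Of every 1000000 fragments on genes, these rows took 6.12 to 14.6 in the 12 libraries without DES, of which 8.41 to 12.4 in control, and 12.3 to 26.6 with DES, 10.8 to 21.6 with DES and calcium and 1.46 to 13.4 with DES and cadmium. Libraries with and without DES overlapped. The 12 rows with at least 100 fragments were led by SNORD104 in SNHG25, with 212 fragments in the 3 control and 196 in the 3 DES libraries together. SNORA71C in SNHG17 had 25, 27 and 6 fragments in the control libraries and 68, 47 and 81 in the DES libraries. SNORA71B in the same host had 19, 12 and 8 fragments and then 30, 69 and 35. SNORD1B in SNHG16 had the lower counts with DES, with 12, 13 and 13 fragments in control, 6, 2 and 5 with DES and 0, 0 and 0 with DES and calcium. The counts are small and the near-identical SNORA71 copies can share reads, and no test was run on them.

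The genes of the pathways around the host RNAs were read from lists. Of 12 mRNAs long known as NMD targets or as stress genes with upstream reading frames, 9 were called higher and 0 lower with DES, with a median log2 fold change of 2.09. Over all tested genes 16.7% were called higher and 12.9% lower, with a median of 0.05, and the counts of each list stand beside these shares. PPP1R15A, the phosphatase subunit that reverses eIF2α phosphorylation, rose by 4.64 ± 0.29 (adjusted p = 0.000289) on the log2 scale, the stress transcription factor ATF3 by 4.39 ± 0.29 (adjusted p = 0.000331) and GADD45B, a growth arrest and DNA damage gene, by 4.07 ± 0.16 (adjusted p = 6.58e-05). Of 17 NMD factors 6 were called higher and 0 lower, with a median of 0.27, among them the exon junction proteins CASC3 (0.84 ± 0.17, adjusted p = 0.0112) and EIF4A3 (0.84 ± 0.13, adjusted p = 0.00522) and the SMG1 partner SMG8 (0.77 ± 0.19, adjusted p = 0.0244). Of 12 box C/D particle genes 5 were called higher and 0 lower, with a median of 0.61, among them the assembly factor NUFIP1 (1.11 ± 0.16, adjusted p = 0.00392), the core protein SNU13 (1.02 ± 0.19, adjusted p = 0.00916) and the methylase FBL (0.88 ± 0.20, adjusted p = 0.0180). Of 6 box H/ACA particle genes 1, the core protein NOP10, was called higher (1.08 ± 0.25, adjusted p = 0.0188), which is 16.7% of the list and no more than the share of all genes. Of 15 S-phase genes 0 were called higher and 2 (13.3%) lower, close to the share of all genes, FEN1, a flap nuclease (−1.59 ± 0.24, adjusted p = 0.00512), and PCNA, the replication clamp (−1.01 ± 0.27, adjusted p = 0.0324). In DES with calcium against calcium the S-phase genes were on the other side, with 11 of 15 called higher and 0 lower and a median of 1.57, where 18.5% of all genes were called higher. In that comparison 5 of the 12 stress and NMD-target mRNAs, 4 of the 17 NMD factors, 8 of the 12 box C/D genes and 3 of the 6 box H/ACA genes were called higher, and 0 genes of these lists lower. In DES with cadmium against cadmium, where 4.76% of all genes were called higher, 1 of the 12 stress and NMD-target mRNAs, 1 of the 17 NMD factors, 2 of the 12 box C/D genes, 1 of the 6 box H/ACA genes and 0 of the 15 S-phase genes were called higher, and 0 genes of these lists lower. With calcium alone against control 4 of the 12 stress and NMD-target mRNAs were called higher, where 4.6% of all genes were, and 13 of the 15 S-phase genes lower, where 2.53% were. The S-phase genes had a median of −1.89 with calcium, −2.20 with cadmium and −1.35 with GSK4716, with 0 of 15 above 0 in each, and 0 were called with cadmium or GSK4716, where limma called 22 and 0 of all genes. The part of these genes in the levels of the host RNAs was not tested.

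Protein-coding hosts of snoRNAs were called in both directions. Of 147 tested protein-coding hosts, 27 were called higher (18.4%) and 17 lower (11.6%) with DES, with a median log2 fold change of 0.18, against 16.7% and 12.9% of all genes. The translation factor EIF4A1 (2.97 ± 0.29, adjusted p = 0.00126), the ribosomal protein gene RPL17 (2.07 ± 0.26, adjusted p = 0.00278) and C6orf48 (1.30 ± 0.16, adjusted p = 0.00229) had the largest rises. EIF4A1 and RPL17 are listed at 1.07 and 5.00 FPKM in control and overlap the readthrough rows SENP3-EIF4A1 and RPL17-C18orf32, so reads there cannot be assigned with certainty. The largest falls were in DNAJC16 (−1.70 ± 0.23, adjusted p = 0.00374), the deubiquitinase USP34 (−1.68 ± 0.51, adjusted p = 0.0460) and ZBED3 (−1.49 ± 0.24, adjusted p = 0.00618). Of 7 tested noncoding hosts outside the members, 2 were called higher (28.6%), the pseudogenes CCT6P3 and CCT6P1, and 0 lower, with a median of 0.79. In DES with calcium against calcium 65 of the 147 protein-coding hosts were called higher (44.2%) and 16 lower (10.9%), with a median of 0.52, against 18.5% and 16.5% of all genes, and 4 of the 7 noncoding hosts were called higher and 0 lower. In DES with cadmium against cadmium 11 of the 147 were called higher (7.48%) and 3 lower (2.04%), with a median of 0.35, against 4.76% and 5.13% of all genes, and of the 7 noncoding hosts 0 were called higher and 1 lower.

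**Figure D5:**
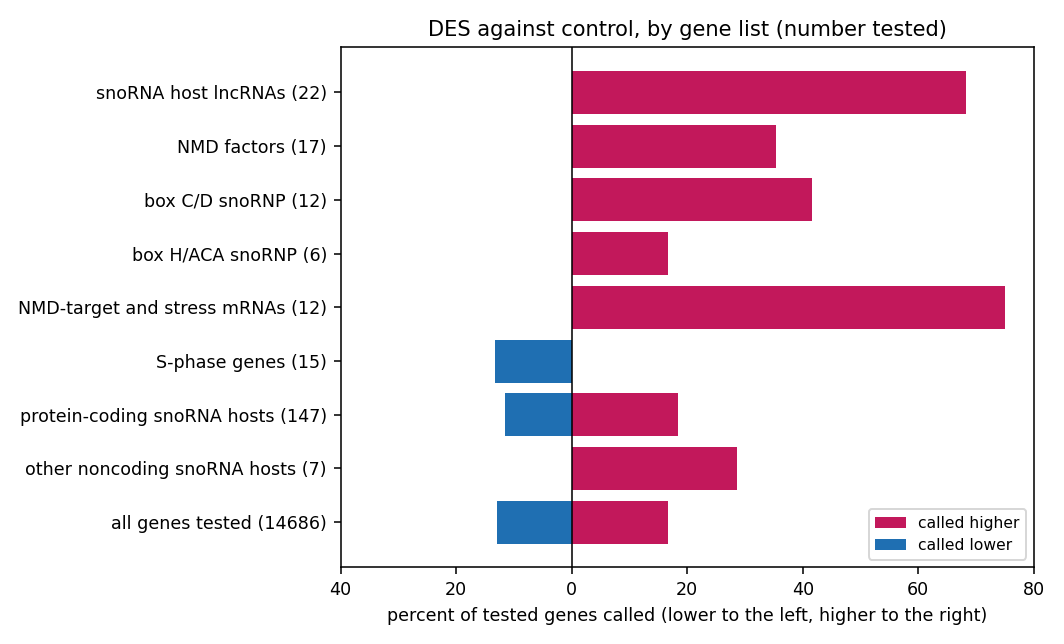
Percent of tested genes called higher (to the right) and lower (to the left) with DES against control, for the host lncRNAs, 7 other gene lists and all tested genes, with the number tested in brackets. The bar of the host lncRNAs reaches 68.2% and that of the NMD-target and stress mRNAs 75.0%, while protein-coding snoRNA hosts stand at 18.4% beside 16.7% for all genes.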

How the data were processed

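Poly(A) RNA from 21 libraries was sequenced, 3 for each of 7 groups taken from the titles given by the submitters. The authors deposited 1 table, which gives FPKM for every gene in every library beside the length of the gene. The submitters' processing notes name HISAT2 2.0.5, featureCounts 1.5.0-p3 and GRCh38.p14. The study's count test was not run. FPKM multiplied by gene length, divided by what 1 fragment is worth in each library (inferred from its smallest values), gave whole fragments for 100.0% of values (tolerance 0.01), with a median of 18314738 per library. No library was a copy of another, since the most alike pair had the same fragment number for 5.27% of genes.

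Tests used limma 3.58.1 in R 4.3.3 (lmFit, eBayes with trend) on log2(FPKM + 0.1). A gene was tested where its mean reached 0.5 FPKM, which held for 14686 genes, and each fit took only the groups it compares. All p-values are two-sided, with Benjamini-Hochberg adjustment over those genes and a threshold of 0.05. There were 8 comparisons planned and 2 added. The alternatives were 2 other scalings, a pseudocount of 1, 2 other filters, limma-voom on those recovered fragments, all groups in one fit, a replicate block and leaving out each library.

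Deviations of same-numbered libraries correlated at 0.13, 0.10 and 0.28 between DES and DES with calcium. Between DES and DES with cadmium they correlated at 0.47, 0.12 and 0.31. Between calcium and DES with calcium the values were 0.10, 0.06 and 0.16, and between control and GSK4716 0.12, −0.02 and 0.18. Libraries of unlike number were not compared, so pairing by replicate number was not shown, and the labels do not give it. The members and gene lists were chosen with earlier results of these data known. Named are all members, per library for GAS5, ZFAS1, EPB41L4A-AS1 and the 14 called members with the largest change, and up to 3 called genes per list and direction for DES. NHP2L1 was analysed under SNU13, its current name. One marker of the line is not reported here. Starts and sequences were read from the GENCODE release 44 annotation and the hg38 genome. Figures and tables used Python 3.11.15, pandas 2.3.3, numpy 2.4.6 and matplotlib 3.10.9.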

Additional observations from a re-analysis of the deposited data

How the results depend on the processing

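No called member changed its direction under any alternative. For the members called with DES, 171 of 209 refits kept the call and 38 lost it. The count of 15 called members with DES was 7 with no filter on low values, where 58735 genes were tested. There 1.75% of all genes were called higher instead of 16.7%. The count was 11 with scaling by total fragments (12.6%), which moved the median log2 fold change of all genes to -0.13. With the replicate block it was 12 (12.7%), where same-numbered control and DES libraries had correlations of deviations of -0.08 to 0.03. With 1 library left out it was 10 to 14, of which 10 to 13 were higher (8.65% to 19.6% of all genes). SNHG14 was called lower without DES replicate 3 and by limma-voom, which also called it lower in DES with calcium against calcium. DES with calcium against calcium gave 7 instead of 12 with no filter (0.836% of all genes called higher instead of 18.5%), and 11 to 13 with 1 library left out (11.5% to 16.2%). DES with cadmium against cadmium gave 2 instead of 5 with scaling by total fragments (2.45% of all genes called higher instead of 4.76%). It gave 0 with no filter (0.0885% of all genes called). All 7 groups in one fit gave 11 (10 higher and 1 lower, with 37.2% of all genes called against 9.89%). The replicate block gave 0 and called 0 of all genes. Leaving out 1 library gave 0 to 5 (0% to 3.30% of all genes called higher). Where no member was called, all 7 groups in one fit called 3 with cadmium (6.99% of all genes called). That fit called 4 for DES with cadmium against DES (4.11%) and 5 for the cadmium interaction (5.46%). A pseudocount of 1 called 1 for that interaction (2.51%). Leaving out 1 library called 0 to 2 with cadmium (0.00681% to 10.9%) and 0 to 1 for the cadmium interaction (0.102% to 2.79%). The replicate block changed no other count. The causes were not tested. Low fragment counts limit SNHG9, SNHG22 and SNHG25, each with a library under 10 fragments.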
